A study of Arabidopsis thaliana with 71 samples.

Results

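Seedlings in which the leaf factor AS2 (Asymmetric Leaves 2) was switched on were set against seedlings in which the leaf factor REV (Revoluta) was switched on, and the question was which genes changed differently in the 2 lines over 120 min. The measure was the change in GR-AS2 (120 min minus 0 min) minus the change in GR-REV (120 min minus 0 min), on the scale of log2(FPKM + 0.5), where FPKM are fragments per kilobase of transcript, scaled for library size. Of the 71 libraries in the series, 12 belong to these 4 groups, with 3 in each. Of 22132 nuclear genes in the table, 19251 had a mean of at least 1 FPKM in a group and were tested, and 2881 lay below that limit. The gene nearest to the limit from above was AT3G18020, at 1.0026 FPKM in its highest group, and the nearest from below was AT1G23910, at 0.99998 FPKM.

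The groups were GR-AS2 at 120 min, GR-AS2 at 0 min, GR-REV at 120 min and GR-REV at 0 min. All were whole seedlings of the Columbia ecotype of Arabidopsis thaliana, grown for 7 days in shaken liquid medium. Each line carried its factor fused to GR, a piece of the glucocorticoid receptor that binds the hormone, and all flasks were given 50 µM dexamethasone, with plants frozen at 0 or 120 min after it. No flask without the hormone is among these groups. The labels give the same hormone dose and times for both lines and for wild type (WT), which received dexamethasone too. The sources used here do not name the promoter behind each transgene or the number of insertion lines. The design text calls all replicates biological, without saying whether they were separate flasks. In whole seedlings, fewer cells of a type and less RNA per cell cannot be told apart.

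A GR fusion is held outside the nucleus until the hormone binds, so that adding dexamethasone lets the factor reach its genes. AS2, of the LOB family, acts on the upper (adaxial) leaf side and works with the MYB protein AS1, mainly as a repressor of KNOX genes and of genes of the lower leaf side. REV is an HD-ZIP III protein, a homeodomain and leucine zipper factor that also marks the upper leaf side, and it is mainly known as an activator. The LITTLE ZIPPER (ZPR) genes encode small leucine zipper proteins that pair with HD-ZIP III proteins and keep them off DNA, and they are themselves known to be switched on by HD-ZIP III factors.

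Depth per library is unknown, since FPKM keep no read totals, so replicates alone set the precision. Median FPKM over the genes tested was 5.82 to 6.48 in the 12 libraries, and 350 to 1100 nuclear genes were listed at 0. The libraries were less even in their FPKM summed over nuclear genes. As log10, that sum was 7.793 in GR-AS2 0 min replicate 1 and 7.372 in GR-REV 0 min replicate 3. It was 7.059 in GR-REV 120 min replicate 2 and 6.065 to 6.228 in the others, and the cause was not tested. Replicates of a group correlated at 0.945 to 0.983 across genes, which are not independent. On the main axis of the residuals (11.9% of their variance) GR-AS2 0 min replicate 1 stood at 56.3, against -26.4 and -29.9 for replicates 2 and 3. GR-REV 0 min replicate 3 stood at 39.9 on that axis, against -36.2 and -3.69 for replicates 1 and 2. The summed FPKM of 9 root marker genes was 2590 to 4790 in GR-AS2 at 120 min, 2630 to 16200 in GR-AS2 at 0 min, 1470 to 6450 in GR-REV at 120 min and 1900 to 4810 in GR-REV at 0 min. The summed FPKM of 6 nuclear photosynthesis genes was 40100 to 59000 in GR-AS2 at 120 min, 11800 to 62000 in GR-AS2 at 0 min, 26100 to 52700 in GR-REV at 120 min and 5790 to 65400 in GR-REV at 0 min. A further member, RBCS1A, was listed at 0 in 11 of the 12 libraries and was left out of that sum. The part of organ make-up in the results below was not tested.

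The transgenes were seen in the libraries of their own line. AS2 was measured at 172, 155 and 168 FPKM in GR-AS2 at 120 min and at 251, 245 and 425 FPKM in GR-AS2 at 0 min, against 3.65, 4.21 and 3.96 FPKM in GR-REV at 120 min and 3.53, 2.49 and 4.12 FPKM in GR-REV at 0 min. REV was measured at 2.99, 3.71 and 2.97 FPKM in GR-AS2 at 120 min and at 3.81, 2.5 and 2.41 FPKM in GR-AS2 at 0 min, against 61.4, 59.8 and 168 FPKM in GR-REV at 120 min and 147, 83.5 and 107 FPKM in GR-REV at 0 min. Every library thus carried the transcript its label names, and the lines did not overlap in either gene at either time. WT had a median of 4.42 FPKM of AS2 and 3.02 FPKM of REV at 120 min. The level of AS2 was lower at 120 min than at 0 min in GR-AS2 (log2 change -0.85, limma adjusted p = 0.0228). That call was lost when replicate 3 of 0 min or replicate 1 or 2 of 120 min was left out, without the covariate for library codes and from the 12 libraries alone. Its difference of changes between the lines was -1.06 ± 0.28 (SE; adjusted p = 0.0617), and that of REV was 0.50 ± 0.41 (adjusted p = 0.809).

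ZPR1 and ZPR4 had the lowest differences of all genes that passed, and 3 of the 4 ZPR genes rose in GR-REV while none passed the test in GR-AS2. In all, 106 genes (0.551% of those tested) passed the test of the difference of changes with limma at an adjusted p under 0.05. Of these, 76 (0.395%) were lower, meaning that their change in GR-AS2 lay below that in GR-REV, and 30 (0.156%) were higher. Over all genes tested the difference had a median of -0.004, and its standard error a median of 0.302. The difference was larger than 1 on the log2 scale in 94 of the 106 genes and larger than 2 in 23. In the 76 lower genes the GR-AS2 change had a median of -0.35 (from -1.95 to 0.56) and the GR-REV change ran from -0.27 to 5.24. The GR-REV change was above 0 in 75 of them (against 9973 of all 19251 genes), all but Hop3, a co-chaperone gene named here after its values were seen. In the 30 higher genes the GR-AS2 change had a median of 0.34 (from -0.26 to 3.03). There the GR-REV change was below 0 in all 30 (against 9155 of all genes), with a median of -1.02. Both sets were chosen by a difference that holds the GR-REV change, which favours these signs, so the counts are a description. In WT, over 3 libraries a time, the change at 120 min had a median of -0.05 in the lower and 0.07 in the higher genes. When the spread was estimated from the 12 libraries alone, limma called 3 genes (ZPR1, ZPR4 and AT1G02300). That fit leaves each difference unchanged and alters only its spread, so the direction of the 106 genes could not differ. All 106 had an unadjusted p under 0.05 in it, but 103 missed the adjusted threshold (median adjusted p of the 106 = 0.156).

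**Figure D1:**
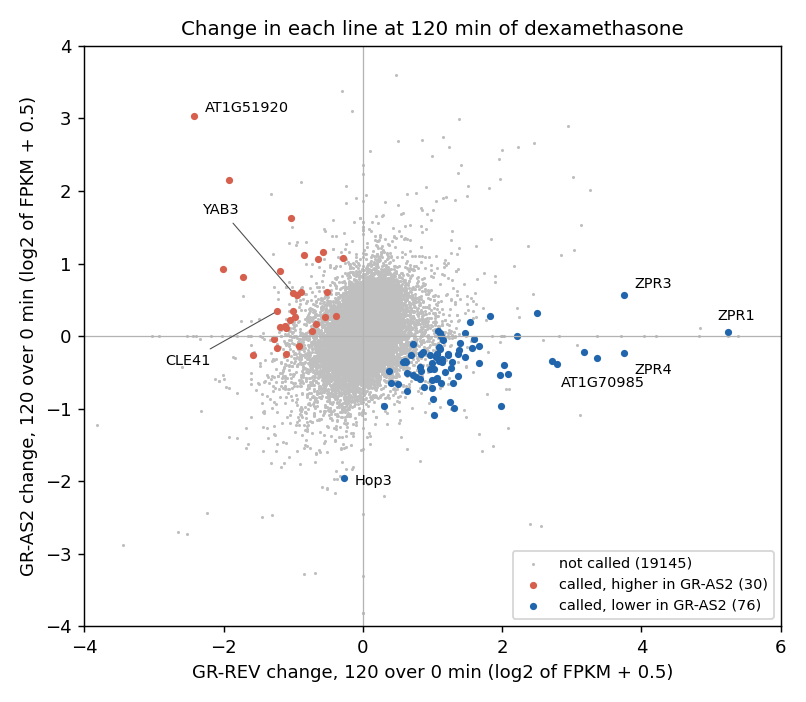
Change at 120 min over 0 min in GR-REV (horizontal axis) and in GR-AS2 (vertical axis), both as log2 of FPKM + 0.5, with 1 point for each of the 19251 genes tested; 18 genes, none of them called, lie outside the axes. Of the 76 genes called lower (blue), 75 lie to the right of 0, with Hop3 just to the left, and all 30 called higher (red) lie to the left, while most of both sets lie close to 0 on the vertical axis.

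ZPR1, ZPR3 and ZPR4 were each higher in every GR-REV library at 120 min than in any other library of the comparison. ZPR1 was at 16.7, 14.4 and 11.7 FPKM in GR-AS2 at 120 min and at 13.1, 16.9 and 11.3 FPKM in GR-AS2 at 0 min, against 1710, 957 and 1860 FPKM in GR-REV at 120 min and 59.1, 45.2 and 20.3 FPKM in GR-REV at 0 min. ZPR4 was at 1.95, 0.604 and 1.01 FPKM in GR-AS2 at 120 min and at 1.17, 1.62 and 1.36 FPKM in GR-AS2 at 0 min, against 38.7, 30.1 and 40.6 FPKM in GR-REV at 120 min and 2.22, 2.8 and 1.79 FPKM in GR-REV at 0 min. In both genes the 2 times overlapped in GR-AS2 and were far apart in GR-REV. ZPR3 was at 1.03, 1.66 and 1.74 FPKM in GR-AS2 at 120 min and at 0.773, 1.14 and 0.6 FPKM in GR-AS2 at 0 min, against 53.1, 33.3 and 38.2 FPKM in GR-REV at 120 min and 3.19, 3.74 and 1.36 FPKM in GR-REV at 0 min. The difference of changes was -5.19 ± 0.39 for ZPR1 (limma adjusted p = 2.76e-14), -3.97 ± 0.39 for ZPR4 (adjusted p = 4.15e-10) and -3.18 ± 0.59 for ZPR3 (adjusted p = 0.00134), each with its SE. ZPR3 missed the threshold in the fit of the 12 libraries alone, at an adjusted p of 0.0528. The GR-AS2 change was 0.05, -0.23 and 0.56 on the log2 scale for ZPR1, ZPR4 and ZPR3, with adjusted p of 0.954, 0.721 and 0.53. ZPR1 was already lower in GR-AS2 than in GR-REV at 0 min (log2 difference -1.45, adjusted p = 3.1e-04). That 0 min call was lost in the fit of the 12 libraries alone. In WT at 120 min ZPR1 had a lowest, median and highest value of 14.2, 16.5 and 28 FPKM, and at 0 min of 8.89, 13.6 and 23.3 FPKM. The fourth member, ZPR2, did not pass the test (difference -1.51 ± 0.44, adjusted p = 0.117). It was at 3.1, 5.05 and 3.03 FPKM in GR-AS2 at 120 min and 4.93, 9.2 and 4.35 FPKM in GR-AS2 at 0 min, against 15.3, 10.1 and 14.5 FPKM in GR-REV at 120 min and 4.46, 8.49 and 8.38 FPKM in GR-REV at 0 min.

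The 250 bases before the annotated start are shown for ZPR1 and ZPR3, which both passed the test and rose in GR-REV. ZPR4 did so too, but its sequence is not shown here. The sequences were read from the RefSeq TAIR10.1 genome, on the minus strand in both cases, at chr2:18734342-18734591 for ZPR1 and chr3:19559324-19559573 for ZPR3. Capitals would mark the letters AATNATT, a form of the core bound by HD-ZIP III proteins.
ZPR1: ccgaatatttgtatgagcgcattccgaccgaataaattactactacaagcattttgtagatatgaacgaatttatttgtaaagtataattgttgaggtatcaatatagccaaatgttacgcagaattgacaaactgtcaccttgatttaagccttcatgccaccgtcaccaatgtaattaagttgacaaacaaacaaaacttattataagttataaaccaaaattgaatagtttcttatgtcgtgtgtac
ZPR3: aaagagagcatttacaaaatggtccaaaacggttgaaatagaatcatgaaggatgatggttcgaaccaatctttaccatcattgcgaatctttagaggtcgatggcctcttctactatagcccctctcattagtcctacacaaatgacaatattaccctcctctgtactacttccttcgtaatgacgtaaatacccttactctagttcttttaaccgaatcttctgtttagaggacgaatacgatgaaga
Neither window held these letters, so neither has capitals. From 250 bases before to 50 after the start, AATNATT (which reads the same on both strands) was found in 37 of 75 lower genes with a promoter in the reference (49.3%), in 10 of 30 higher genes (33.3%) and in 35.4% of the 19169 tested genes with one. The narrower AATGATT on either strand, which lies within AATNATT, was found in 22.7%, 10% and 12.9% of the same sets. CACGTG, the G-box core, was found in 4%, 3.33% and 8.7% of them. These shares are a description and no site is inferred from them.

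**Figure D2:**
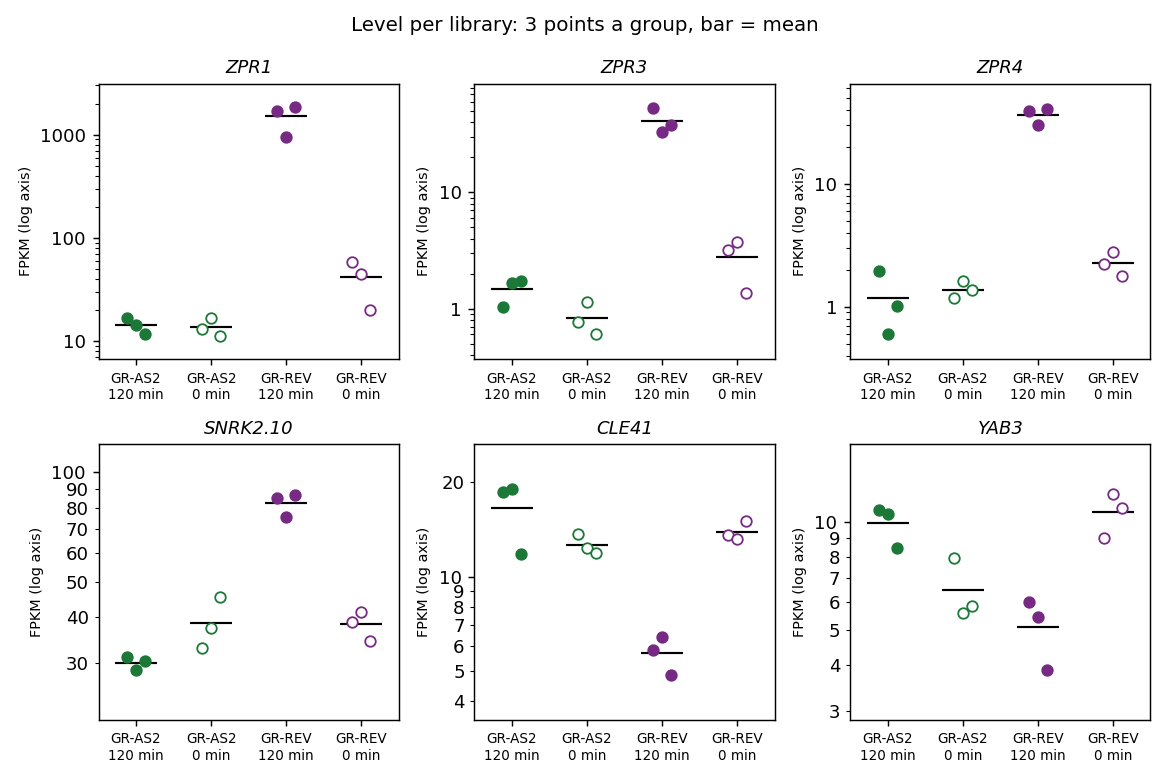
Level in FPKM (log axis) of 6 named genes in the 12 libraries, 3 points a group with the mean as a bar; filled points are 120 min and open points 0 min. ZPR1, ZPR3, ZPR4 and SNRK2.10 stand apart upwards in GR-REV at 120 min, and CLE41 downwards, while GR-AS2 at 120 min lies near its own 0 min level in ZPR1 and ZPR4.

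Other lower genes included a kinase of osmotic stress signalling, transporters and a brassinosteroid enzyme. SNRK2.10, a SnRK2 protein kinase activated by osmotic stress, was at 31.1, 28.7 and 30.3 FPKM in GR-AS2 at 120 min and 33, 37.3 and 45.5 FPKM in GR-AS2 at 0 min, against 85.2, 75.4 and 86.9 FPKM in GR-REV at 120 min and 38.9, 41.3 and 34.5 FPKM in GR-REV at 0 min. The lines overlapped at 0 min and were separate at 120 min (difference of changes -1.44 ± 0.17, limma adjusted p = 2.73e-07). UMAMIT33, of a family that exports amino acids from cells, was at 1.25, 1.01 and 1.48 FPKM in GR-AS2 at 120 min and 3.69, 1.93 and 3.35 FPKM in GR-AS2 at 0 min, against 10.5, 7.85 and 10.2 FPKM in GR-REV at 120 min and 1.3, 1.94 and 3.05 FPKM in GR-REV at 0 min (difference -2.95 ± 0.39, adjusted p = 2.03e-06). Each line's times were separate in this gene, in opposite directions. UMAMIT33 overlaps AT4G28050 on the opposite strand, and reads from the 2 genes may be shared, since strand use is not given in the sources used here.

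DWF4, the enzyme of the rate-limiting step of brassinosteroid synthesis, was at 2.4, 1.76 and 2.2 FPKM in GR-AS2 at 120 min and 3.3, 2.59 and 2.75 FPKM in GR-AS2 at 0 min, against 6.37, 8.54 and 7.69 FPKM in GR-REV at 120 min and 2.55, 4.3 and 3.95 FPKM in GR-REV at 0 min. Its difference was -1.36 ± 0.22 (limma adjusted p = 8.61e-05). AT1G02300, a cysteine proteinase gene, was 1 of 3 of the 76 lower genes that also fell in GR-AS2 by that line's own test. It was at 2.96, 3.36 and 3.06 FPKM in GR-AS2 at 120 min and 5.07, 6.93 and 7.14 FPKM in GR-AS2 at 0 min, against 14.3, 11.1 and 11.6 FPKM in GR-REV at 120 min and 4.01, 4.87 and 5.88 FPKM in GR-REV at 0 min. Its change was -0.91 in GR-AS2 (adjusted p = 0.0373) and 1.25 in GR-REV (adjusted p = 2.8e-04), and its difference was -2.16 ± 0.32 (adjusted p = 3.1e-05). AT1G70985, a hydroxyproline-rich glycoprotein gene, averaged 17.6 ± 3.46 FPKM in GR-AS2 at 120 min and 24.3 ± 14.1 FPKM in GR-AS2 at 0 min, against 116 ± 31.5 FPKM in GR-REV at 120 min and 11.5 ± 5.92 FPKM in GR-REV at 0 min (SD, n = 3 each; difference -3.67 ± 0.59, adjusted p = 1.03e-04). WT spanned 13.4 to 84.7 FPKM of this gene at 120 min.

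The remaining lower genes named by adjusted p differed by 1.29 to 2.03 on the log2 scale, all towards GR-REV. The sulfate transporter gene SULTR3;5 was at 2.4 to 2.98 FPKM in GR-AS2 at 120 min and 2.76 to 3.55 FPKM in GR-AS2 at 0 min, against 5.62 to 6.43 FPKM in GR-REV at 120 min and 2.31 to 2.65 FPKM in GR-REV at 0 min. Its difference was -1.29 ± 0.20 (limma adjusted p = 5.36e-05). The differences were -1.63 for iqd9, of the calmodulin-binding IQD family, -1.64 for SCPL34, a serine carboxypeptidase-like gene, -2.03 for AT2G31110, of a family that acetylates cell wall polymers, and -1.49 for AT5G16240, a fatty acid desaturase gene. SCPL34 missed the threshold without the code series covariate (adjusted p = 0.0855). ABI1, a phosphatase that holds back abscisic acid signalling, was at 13, 13 and 13.4 FPKM in GR-AS2 at 120 min and 14.4, 16.5 and 19.6 FPKM in GR-AS2 at 0 min, against 25.7, 22.5 and 29 FPKM in GR-REV at 120 min and 18.9, 14.1 and 17.6 FPKM in GR-REV at 0 min. Its difference was -0.94 ± 0.19 (adjusted p = 0.00286; 0.085 without the code series covariate), and it overlaps MEK1, also called lower, on the other strand.

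Among the higher genes, CLE41, IDD4 and YAB3 fell in GR-REV, and their change in GR-AS2 did not pass the test. CLE41 encodes the precursor of the peptide TDIF, which leaves the phloem and keeps vascular stem cells dividing. It was at 18.6, 19 and 11.8 FPKM in GR-AS2 at 120 min and 13.7, 12.3 and 11.9 FPKM in GR-AS2 at 0 min, against 5.83, 6.4 and 4.85 FPKM in GR-REV at 120 min and 13.6, 13.2 and 15 FPKM in GR-REV at 0 min. The GR-AS2 times overlapped, whereas all GR-REV libraries at 120 min lay below all others (difference 1.57 ± 0.23, limma adjusted p = 2.09e-05). IDD4, a zinc finger factor of the INDETERMINATE DOMAIN family, was at 11.6, 8.35 and 7.98 FPKM in GR-AS2 at 120 min and 7.86, 8.29 and 8.73 FPKM in GR-AS2 at 0 min, against 3.61, 3.82 and 3.34 FPKM in GR-REV at 120 min and 7.61, 8.18 and 9.33 FPKM in GR-REV at 0 min (difference 1.25 ± 0.20, adjusted p = 6.67e-05). YAB3, a YABBY factor of the lower leaf side, was at 10.8, 10.5 and 8.43 FPKM in GR-AS2 at 120 min and 7.91, 5.57 and 5.85 FPKM in GR-AS2 at 0 min, against 5.99, 5.44 and 3.89 FPKM in GR-REV at 120 min and 9.02, 11.9 and 10.9 FPKM in GR-REV at 0 min. In YAB3 the 2 times were separate in both lines, in opposite directions (difference 1.59 ± 0.26, adjusted p = 1.92e-04). Its fall in GR-REV passed that line's own test (log2 change -1.0, adjusted p = 4.04e-04), and its change of 0.59 in GR-AS2 did not (adjusted p = 0.0998). YAB3 had also been lower in GR-AS2 than in GR-REV at 0 min (-0.68, adjusted p = 0.0215), which enters the difference of changes. That 0 min call was lost without replicate 2 or 3 of either line at 0 min and from the 12 libraries alone. In WT it had a median of 13.4 FPKM at 120 min and 11.2 FPKM at 0 min.

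RAP2.1, an ERF family repressor of cold and drought genes, was at 6.14 to 7.67 FPKM in GR-AS2 at 120 min and 4.91 to 6.49 FPKM in GR-AS2 at 0 min, against 1.9 to 3.47 FPKM in GR-REV at 120 min and 5.95 to 6.33 FPKM in GR-REV at 0 min (difference 1.25 ± 0.24, limma adjusted p = 0.00242). Some higher genes instead rose in GR-AS2. AT4G27900, a CCT motif gene, was at 17.3, 15.9 and 12.7 FPKM in GR-AS2 at 120 min and 6.57, 7.99 and 6.4 FPKM in GR-AS2 at 0 min, against 7.63, 5.97 and 6.4 FPKM in GR-REV at 120 min and 7.49, 7.32 and 9.96 FPKM in GR-REV at 0 min. Its change was 1.07 in GR-AS2 (adjusted p = 6.13e-04) and -0.28 in GR-REV (adjusted p = 0.643), with a difference of 1.36 ± 0.26 (adjusted p = 0.00151). MEE3, a small MYB-related gene, was at 2.53, 2.63 and 1.74 FPKM in GR-AS2 at 120 min and 0.833, 0.591 and 0 FPKM in GR-AS2 at 0 min, against 0.147, 1.28 and 0.207 FPKM in GR-REV at 120 min and 1.23, 2 and 1.09 FPKM in GR-REV at 0 min (difference 2.65 ± 0.51, adjusted p = 0.00182). MEE3 is thus a low gene, and its difference ran from 1.91 to 4.22 over the other settings of the fit. AT1G71015 differed by 1.95 ± 0.39 (adjusted p = 0.00269), with a change of 1.11 in GR-AS2 and -0.84 in GR-REV, and it overlaps AT1G71010.

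Low genes need more care. AT2G03565, an uncharacterized gene, was at 1.82, 1.5 and 1.83 FPKM in GR-AS2 at 120 min and was listed at 0 in all 3 GR-AS2 libraries at 0 min, against 0 in all 3 GR-REV libraries at 120 min and 5.83, 1.66 and 0 FPKM in GR-REV at 0 min. It was listed at 0 in all WT libraries of both times, so it passed the test (limma adjusted p = 8.61e-05) on a pattern for which no fold is given. AT1G51920, also uncharacterized, was at 4.38, 2.7 and 7.63 FPKM in GR-AS2 at 120 min and 0.424, 0 and 0 FPKM in GR-AS2 at 0 min, against 2.93, 0 and 0 FPKM in GR-REV at 120 min and 6.77, 3.92 and 3.59 FPKM in GR-REV at 0 min. Its adjusted p was 0.00946, and 0.0502 without GR-REV 120 min replicate 3. The lines differed in AT1G51920 at 0 min as well (-3.05, adjusted p = 0.0218).

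The other higher genes named by adjusted p were AT4G01410 (1.21), UMAMIT46 (1.31) and AT3G08660 (1.27), each given with its difference of changes. All 3 fell in GR-REV, by 1.1, 1.18 and 1.05 on the log2 scale. They lost the call without single libraries. AT4G01410, a LEA-type glycoprotein gene, reached an adjusted p of 0.0655 when GR-AS2 120 min replicate 2 was left out, 0.0542 when GR-REV 0 min replicate 2 was, and 0.0955 without the code series covariate, in limma. UMAMIT46, of the same transporter family as UMAMIT33, reached 0.0709 without GR-REV 120 min replicate 1. AT3G08660, of the NPH3 family of phototropism proteins, reached 0.0888 when GR-AS2 0 min replicate 3 was left out, 0.0542 for GR-AS2 120 min replicate 2, 0.0542 for GR-REV 0 min replicate 2 and 0.0599 without the covariate.

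**Figure D3:**
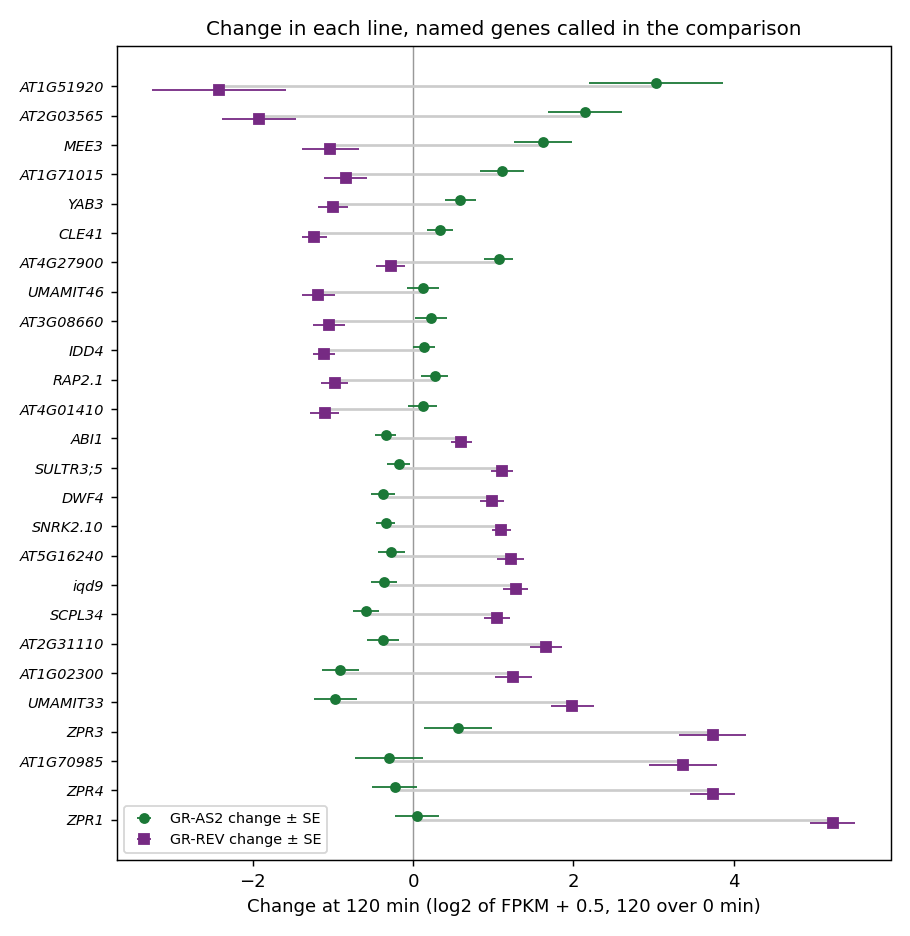
Change at 120 min over 0 min (log2 of FPKM + 0.5, with its SE) in GR-AS2 (green circles) and GR-REV (purple squares) for the 26 named genes that passed the test, from the highest difference to the lowest. In the lower genes the purple squares lie between 0.6 and 5.24 and the green circles between -0.97 and 0.56, whereas AT1G51920, AT2G03565, MEE3, AT1G71015 and AT4G27900 have their larger change in GR-AS2.

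A further 5 lower genes were chosen after their values were seen, as called in each of the 12 fits that left out 1 library. SAG29, a sugar transporter of the SWEET family that is induced in senescence, was at 2.05 to 4.89 FPKM in GR-AS2 at 120 min and 2.57 to 4.38 FPKM in GR-AS2 at 0 min, against 33.4 to 72.3 FPKM in GR-REV at 120 min and 3.05 to 6.82 FPKM in GR-REV at 0 min (difference -3.41 ± 0.58, limma adjusted p = 2.63e-04). IAMT1, which methylates the auxin indole-3-acetic acid, was at 3.98 to 8.93 FPKM in GR-AS2 at 120 min and 5.54 to 15.3 FPKM in GR-AS2 at 0 min, against 14.9 to 28.3 FPKM in GR-REV at 120 min and 4.34 to 6.98 FPKM in GR-REV at 0 min (difference -2.5 ± 0.49, adjusted p = 0.00263). The amino acid permease AAP3 differed by -2.43 ± 0.50 (adjusted p = 0.00412). BSK6, a kinase of the brassinosteroid signalling family, differed by -1.68 ± 0.27 (adjusted p = 1.31e-04). APS3, an ATP sulfurylase of sulfate assimilation, differed by -1.64 ± 0.32 (adjusted p = 0.00263). AAP3, BSK6 and APS3 each overlap a gene on the other strand. In all 5 genes every GR-REV library at 120 min lay above every GR-REV library at 0 min. These values entered the choice of the 5, so this is a description and no further support.

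Each line's own change and the standing difference between the lines are the pieces of this comparison, and they share its libraries. In GR-AS2, 74 genes rose (0.384% of those tested) and 108 fell (0.561%). In GR-REV, 261 rose (1.36%) and 245 fell (1.27%). Among the 76 lower genes, 3 fell in GR-AS2 and 66 rose in GR-REV. Among the 30 higher genes, 5 rose in GR-AS2 and 21 fell in GR-REV. In 13 of the 106 neither line's own change passed. The lines differed at 0 min in 896 genes (4.65%), 306 higher (1.59%) and 590 lower (3.06%) in GR-AS2, and at 120 min in 1132 genes (5.88%), 318 higher (1.65%) and 814 lower (4.23%). Of the 106 genes, 14 were called at 0 min. Single libraries moved several of these counts: the GR-AS2 total of 182 became 505, 77 and 11 without 0 min replicate 1, 2 or 3 and 40, 30 and 295 without 120 min replicate 1, 2 or 3, and the GR-REV total of 506 became 307 without 0 min replicate 3 and 298 or 336 without 120 min replicate 1 or 3. The 0 min total became 1798, 488 and 384 without GR-AS2 replicate 1, 2 or 3 and 465 without GR-REV replicate 2, and the share of higher calls there was 47.8% after quantile normalization in place of 34.2%.

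At 60 min the 3 ZPR genes had already passed the test, as had 32 of the 76 lower and 6 of the 30 higher genes. At 30, 60 and 120 min the difference of changes was -1.72, -4.88 and -5.19 for ZPR1, -1.33, -3.78 and -3.97 for ZPR4, and -1.09, -3.66 and -3.18 for ZPR3. None of the 3 passed at 30 min, where GR-REV has 2 libraries (adjusted p of 0.126, 0.275 and 0.596 in limma), and all passed at 60 min (adjusted p of 3.16e-13, 2.44e-09 and 2.05e-04). ZPR1 was at 15.9, 15.2 and 16.1 FPKM in GR-AS2 at 30 min and 11.5, 10 and 16.9 FPKM at 60 min. In GR-REV it was at 124 and 171 FPKM at 30 min and 1740, 819 and 803 FPKM at 60 min. CLE41 differed by 0.59, 0.72 and 1.57 and YAB3 by 0.16, 1.0 and 1.59 at the 3 times, and neither passed at 60 min (adjusted p of 0.156 and 0.0571). Over the 76 lower genes the median difference was -0.63, -1.01 and -1.49, and over the 30 higher genes 0.43, 0.91 and 1.33. These genes were chosen at 120 min and all times share the 0 min libraries, so the series is a description. At 30 min 6 genes passed in all (0.0312%), 1 higher (0.00519%) and 5 lower (0.026%), and leaving out 1 library gave 1 to 191, the most without GR-AS2 30 min replicate 1. At 60 min, 108 genes (0.561%) passed, 36 higher (0.187%) and 72 lower (0.374%). That total became 284 and 68 without GR-AS2 0 min replicate 1 or 3 and 208 without GR-REV 60 min replicate 2, and its share of higher calls was 22.4% after quantile normalization in place of 33.3%.

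**Figure D4:**
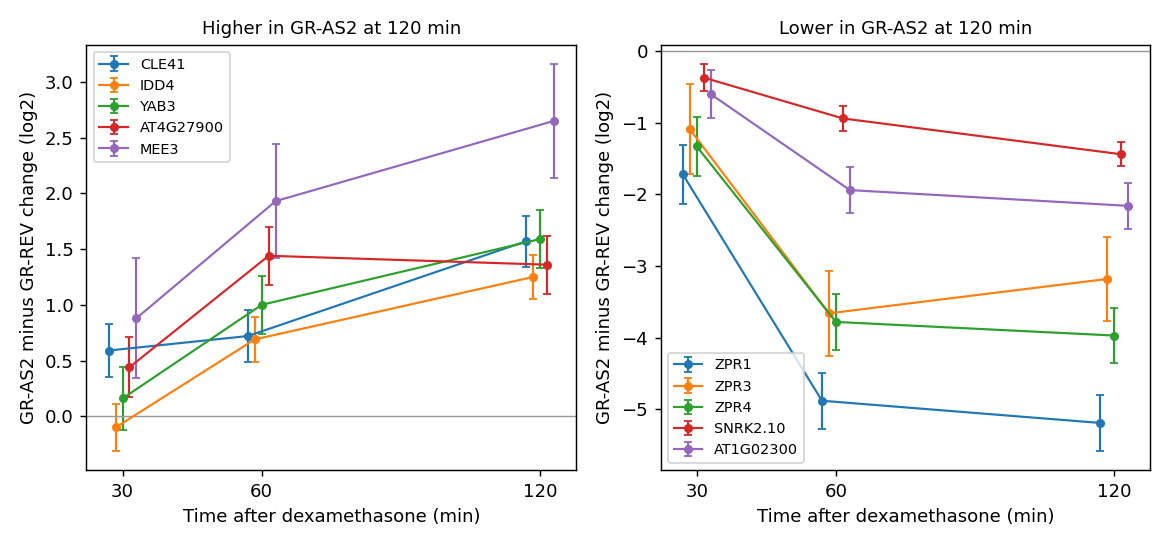
GR-AS2 minus GR-REV change (log2, with its SE) at 30, 60 and 120 min of dexamethasone for 5 higher genes (left) and 5 lower genes (right), with points set slightly apart for clarity. ZPR1, ZPR3 and ZPR4 reach between -3.66 and -4.88 by 60 min, while CLE41, IDD4 and YAB3 have their highest values at 120 min.

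By role in leaf polarity, the targets described for REV leaned towards lower differences. Of the 12 members 3 passed as lower (against 0.395% of all genes), all of them ZPR genes, and the median difference was -0.96, against -0.004 over all genes tested. In GR-REV 8 of the 12 rose (against 1.36% of all genes). In GR-AS2 none passed, where 0.384% of all genes rose and 0.561% fell. The list was drawn up from what is known of REV, with earlier results of these data known, and is no independent evidence of direction. The HD-ZIP II genes, homeodomain factors of the upper leaf side and of shade growth, had a median of -0.91 with 0 of 8 passing in limma and 6 of 8 lower at an unadjusted p under 0.05, a limit that 1540 of all 19251 genes (8%) passed in either direction. HAT2 was at 8.57, 10.9 and 7.11 FPKM in GR-AS2 at 120 min and 8.3, 8.56 and 6.85 FPKM in GR-AS2 at 0 min, against 19.5, 16.5 and 20.9 FPKM in GR-REV at 120 min and 7.22, 8.69 and 10.3 FPKM in GR-REV at 0 min. The GR-REV libraries at 120 min stood above all others, but its difference of -0.94 ± 0.26 missed the threshold (adjusted p = 0.0924). ATHB2, HAT14 and HAT3 differed by -0.98, -0.92 and -0.89 (adjusted p of 0.138, 0.194 and 0.267). The 5 HD-ZIP III genes themselves had a median of 0.30, with none passing at either threshold in limma.

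The lower leaf side genes (KANADI, YABBY, ETT and ARF4) had a median of 0.45, with 1 of 10 higher (YAB3, against 0.156% of all genes) and 4 of 10 at an unadjusted p under 0.05 (3 higher and 1 lower, against 8% of all genes). KAN2, which encodes a KANADI factor, was at 2.6, 2.62 and 2.7 FPKM in GR-AS2 at 120 min and 3.64, 2.22 and 2.25 FPKM in GR-AS2 at 0 min, against 1.76, 1.62 and 1.29 FPKM in GR-REV at 120 min and 3.34, 3.17 and 2.8 FPKM in GR-REV at 0 min. It fell in GR-REV by 0.81 (limma adjusted p = 0.00114), and its difference of 0.81 ± 0.23 missed the threshold (adjusted p = 0.104). ETT, an auxin response factor and described target of AS1 and AS2, went the other way, with a difference of -0.79 ± 0.21 (adjusted p = 0.0728). It was at 3.65, 4.13 and 3.46 FPKM in GR-AS2 at 120 min and 5.55, 4.99 and 4.31 FPKM in GR-AS2 at 0 min, against 5.12, 5.84 and 7.29 FPKM in GR-REV at 120 min and 3.82, 4.11 and 5.19 FPKM in GR-REV at 0 min. In GR-AS2 its 2 times did not overlap, but its change there was -0.36 (adjusted p = 0.23). The 10 described targets of AS1 and AS2, which include ETT and KAN2, had a median difference of 0.08 with 0 passing in limma and 3 at an unadjusted p under 0.05 (1 higher and 2 lower, against 8% of all genes), and in GR-AS2 none of them passed. The KNOX members KNAT1, KNAT2 and KNAT6, the best known targets of AS2, differed by 0.03, 0.07 and 0.09.

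Among hormone genes, auxin response genes had a median of -0.73 (0 of 9 passing in limma, 4 lower at an unadjusted p under 0.05, against 8% of all genes) and auxin synthesis genes of -0.51 (0 of 5, with 3 lower at that unadjusted limit). IAA1, IAA2 and IAA19, Aux/IAA repressors that auxin induces, rose in GR-REV by 0.95, 0.77 and 0.92 (3 of 9, against 1.36% of all genes), and their differences were -1.11, -0.68 and -0.99 (adjusted p of 0.287, 0.469 and 0.315). GH3.3, an enzyme that joins auxin to amino acids, fell in GR-REV by 0.86 (adjusted p = 0.033; 1 of 9, against 1.27%), and 0 or 1 member fell when 1 GR-REV library was left out. Without 1 GR-REV library the number of auxin response genes that rose in GR-REV was 0 to 2 in place of 3. Abscisic acid receptors had a median of 0.07 with 0 of 9 passing and 2 unadjusted. Those 2 were PYL6, with a difference of -1.15 (adjusted p = 0.0947), and PYR1, with -1.4 (adjusted p = 0.0961). Type-A response regulators, gibberellin oxidases and cytokinin oxidases had medians of 0.32, 0.23 and 0.06, with none passing in limma and 1 of 9, 2 of 5 and 2 of 5 at an unadjusted p under 0.05, against 8% of all genes. The 2 were 1 higher and 1 lower in each oxidase list.

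Jasmonate genes set the lines apart at both times, while none passed the test of the difference of changes. Of 17 members, which make, sense or respond to this wound hormone, 14 were lower in GR-AS2 than in GR-REV at 0 min (against 3.06% of all genes) and 16 at 120 min (against 4.23%), with medians of -1.52 and -1.9. The difference of changes passed in 0 of 17 in limma, with a median of -0.31. At an unadjusted p under 0.05 there were 2, both lower (against 8% of all genes in either direction). The difference lay below 0 in 14 of the 17, against 9708 of all 19251 genes, so equal changes in the lines are not shown. VSP1, a storage protein induced by jasmonate, was at 11.5, 9.28 and 12.3 FPKM in GR-AS2 at 120 min and 15.9, 9.74 and 29.2 FPKM in GR-AS2 at 0 min, against 175, 95.6 and 459 FPKM in GR-REV at 120 min and 124, 48.8 and 95.9 FPKM in GR-REV at 0 min. Every GR-REV library was above every GR-AS2 library, and WT had a median of 11.4 FPKM at 120 min and 4.83 FPKM at 0 min. VSP1 and VSP2 are close copies, so reads may have been divided between them. JAZ2, a jasmonate repressor, was at 17, 14.6 and 16.5 FPKM in GR-AS2 at 120 min and 18.4, 20.6 and 20.7 FPKM in GR-AS2 at 0 min, against 36.4, 33.1 and 57.4 FPKM in GR-REV at 120 min and 41.4, 32.4 and 32.5 FPKM in GR-REV at 0 min. The count at 0 min was 12 to 14 and that at 120 min 14 to 16 in fits that left out 1 library each. The PDF1 defensins are antifungal peptides induced by jasmonate with ethylene. They were lower in GR-AS2 in 5 of 7 at 0 min (against 3.06% of all genes) and in 4 of 7 at 120 min (against 4.23%). Over all settings each of these counts was 3 to 5. PDF1.2 was at 195, 63 and 95.6 FPKM in GR-AS2 at 120 min and 173, 1320 and 883 FPKM in GR-AS2 at 0 min, against 4750, 1760 and 3820 FPKM in GR-REV at 120 min and 10400, 7210 and 6420 FPKM in GR-REV at 0 min. Its difference of changes was -1.16 ± 1.23 (limma adjusted p = 0.868), and it too has close copies. The 7 defensins had a median difference of -0.25, with 0 passing in limma. At an unadjusted p under 0.05 there was 1 (against 8% of all genes in either direction), PDF1.5, which went the other way. Its difference was 3.01 (adjusted p = 0.0632), and it passed in 6 of 26 other settings. In GR-AS2 1 of the 7 rose (against 0.384% of all genes), and 0 or 1 did without 1 library.

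In the other lists none of the members passed the difference of changes in limma, apart from ABI1 among the 6 tested abscisic acid phosphatases. Heat shock genes had a median of -0.63 with 0 of 6 passing and 1 at an unadjusted p under 0.05. HSP70 was at 83.5, 12.7 and 71.2 FPKM in GR-AS2 at 120 min and 243, 379 and 791 FPKM in GR-AS2 at 0 min, against 101, 44.4 and 105 FPKM in GR-REV at 120 min and 197, 97.5 and 143 FPKM in GR-REV at 0 min. It fell in GR-AS2 by 3.28 (adjusted p = 7.25e-04), and its difference was -2.44 ± 0.80 (adjusted p = 0.215). In GR-AS2 3 of the 6 members fell (HSP70, HSP101 and HSP90.1, against 0.561% of all genes), and 0 did when replicate 3 of 0 min or replicate 2 of 120 min was left out, or from the 12 libraries alone. WT had a median of 62.3 FPKM of HSP70 at 120 min and 126 FPKM at 0 min. Root markers had a median of -0.33 and photosynthesis genes of 0.38, with 1 of 9 and 0 of 7 at an unadjusted p under 0.05. Cell cycle, circadian clock, touch and early stress, and glutathione transferase genes had medians between -0.09 and 0.43 with none at an unadjusted p under 0.05. Medians were 0.24 for meristem and boundary genes, 0.11 for indole glucosinolate genes and -0.31 for auxin transport genes. At an unadjusted p under 0.05 there were 3 of 10, 0 of 10 and 2 of 7, against 8% of all genes. The 3 were 2 higher and 1 lower, the lower one being AS2, the transgene of GR-AS2. The 2 were both lower.

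**Figure D5:**
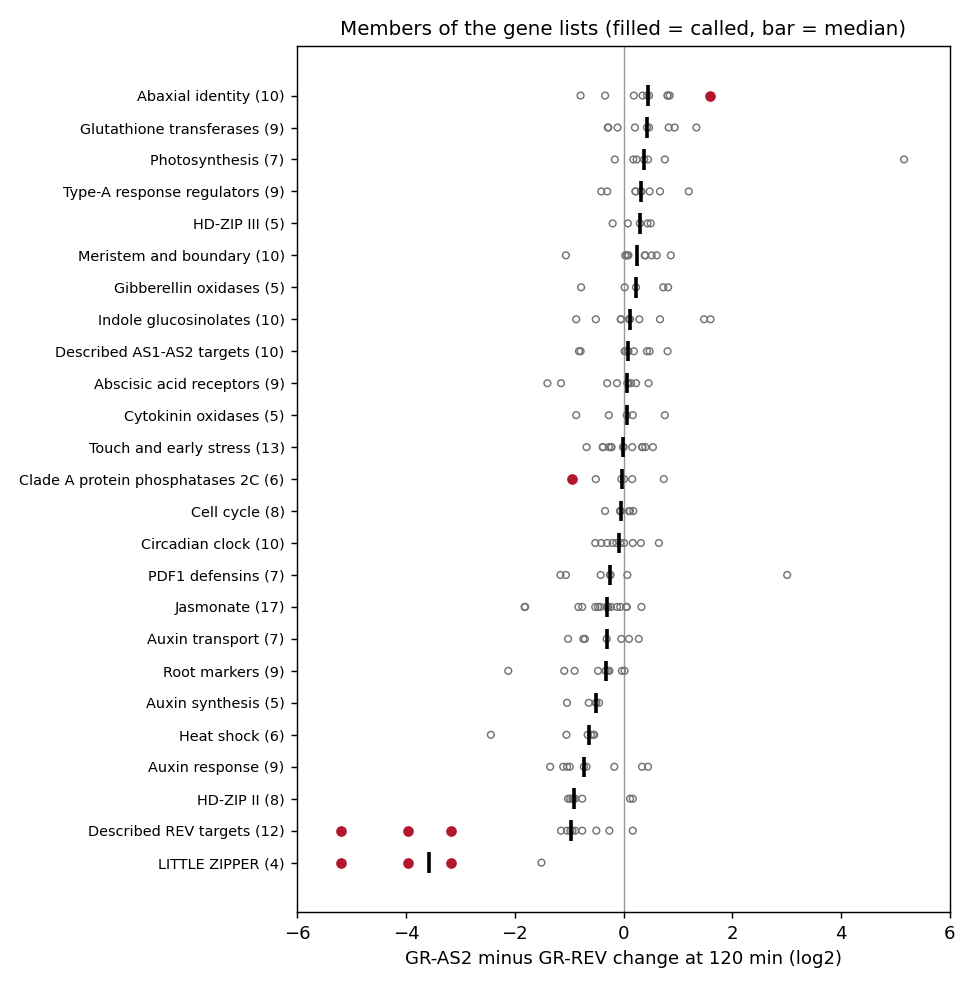
GR-AS2 minus GR-REV change at 120 min (log2) of each tested member of 25 gene lists, with the number tested in brackets, filled points for members that passed and a bar for the median. The ZPR genes stand at -3.18, -3.97 and -5.19, and 2 other members passed, YAB3 at 1.59 and ABI1 at -0.94.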

How the data were processed

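The deposited values were FPKM per gene with geometric normalization between libraries by the authors, per the labels' design text. TopHat2 2.0.10, Cufflinks and the genome build TAIR10 are named in the submitters' processing notes; the sources used here give no Cufflinks version, filter or strand use. cDNA was primed with oligo-dT, per the labels' protocols. The table held 22346 entries; 14 placeholders and 200 organellar genes were left out. It held 0 columns of other samples. Symbols, coordinates and promoters came from RefSeq TAIR10.1, in which 22041 of 22132 nuclear identifiers were found; where it has no symbol the identifier is printed. Depth could not be recovered: at most 6.05% of low values shared 1 ratio between libraries. An exact 0 can be a failed estimate.

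Tests were run with limma 3.58.1 (R 4.3.3). Values were taken as log2(FPKM + 0.5), a scale that understates changes of low genes. The model was fitted to all 71 libraries with 20 group means (line and time) and a covariate for the series of library codes, on 49 residual degrees of freedom, with eBayes and a trend. It was fitted as 7 comparisons tested on both sides, each adjusted by Benjamini-Hochberg over 19251 genes, with a threshold of 0.05. The main comparison was also run on simulated data with independent noise and the same spread of a gene in all libraries. That run cannot show whether the spread is equal between the real groups. P-values measure only the spread between these samples, which may be technical.

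Named genes were AS2 and REV, the 12 of each direction with the smallest adjusted p, every list member that passed, and up to 4 members per list with the smallest unadjusted p. The members of the 25 lists (212 genes, of which 192 were tested) and the comparison itself were chosen with earlier results of these data known. Same-numbered libraries correlated in their deviations at -0.53 to 0.258, over 0.1 in 6 of 18 cases, so replicate numbers were not taken to pair samples. Alternatives were other pseudocounts, filters, samples, normalizations, variance models, library weights, a replicate block and fits without single libraries.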

Additional observations from a re-analysis of the deposited data

Results flagged for a closer look

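The change at 120 min differed between GR-AS2 and GR-REV by the test of the difference itself (limma, adjusted p under 0.05) in 26 named genes. The values are GR-AS2 minus GR-REV changes on the scale of log2(FPKM + 0.5). Among leaf polarity and HD-ZIP III inhibitor genes they were -5.19 for ZPR1, -3.97 for ZPR4, -3.18 for ZPR3 and 1.59 for YAB3. Among signalling and regulatory genes they were -1.44 for SNRK2.10, -0.94 for ABI1, -1.63 for iqd9, 1.57 for CLE41, 1.25 for IDD4, 1.25 for RAP2.1, 2.65 for MEE3 and 1.36 for AT4G27900. Among genes of transport and metabolism they were -2.95 for UMAMIT33, 1.31 for UMAMIT46, -1.29 for SULTR3;5, -1.36 for DWF4, -1.49 for AT5G16240, -1.64 for SCPL34 and -2.16 for AT1G02300. Among the others they were -2.03 for AT2G31110, -3.67 for AT1G70985, 1.95 for AT1G71015, 1.21 for AT4G01410, 1.27 for AT3G08660, 5.45 for AT1G51920 and 4.07 for AT2G03565. For AT2G03565 the value rests on the pseudocount, since 2 of the 4 groups are listed at 0 in all libraries, and it stands for no fold. For AT1G51920, with 0 in 2 of 3 libraries of GR-AS2 at 0 min and of GR-REV at 120 min, the value also depends on the pseudocount, and it ran from 4.13 to 8.63 over the other settings. The value of MEE3, another low gene, ran from 1.91 to 4.22, and its adjusted p was 0.224 from the 12 libraries alone (limma). No group compared holds over 3 libraries, so no single library was tested as an outlier. Without GR-AS2 0 min replicate 1 and GR-REV 0 min replicate 3, which stood furthest out, all 26 passed again.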

How the results depend on the processing

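The 106 genes kept their direction in all 26 other settings. Settings that alter only the spread, such as the fit of the 12 libraries or that without the covariate, leave each difference unchanged. Direction could not change in those settings, so it is no support there. Of the 106 genes, 50 (8 higher, 42 lower) passed in each of the 12 fits without 1 library, which gave 77 to 138 genes. The size of the count depends on how the spread is estimated. The difference of changes at 120 min gave 3 genes from only the 12 libraries compared (1354 at an unadjusted p under 0.05), 67 without the code series covariate and 195 with library weights, a fit that stopped short of convergence; 11 other settings gave 90 to 119. The replicate block gave 109 genes, 104 of them shared, and moved no other comparison's count by over 1.5 times. Without the pair of least typical libraries 109 passed. The GR-AS2 count of 182 became 8 from the 12 libraries, 55 without the covariate, 118 from code series Ot79 alone, 1538 with weights and 543 without the pair, and 11 to 505 without 1 library. The GR-REV count of 506 became 215 from the 12 libraries, 334 without the covariate and 310 without the pair, and 298 to 463 without 1 library. The 0 min count of 896 became 441, 542 and 1666 (12 libraries, no covariate, weights), and 384 to 1798 without 1 library. The 120 min count of 1132 became 725 from the 12 libraries and 1897 with weights, and 834 to 921 without 1 library. The 60 min count of 108 became 65 without the covariate and 2720 with weights, and 68 to 284 without 1 library. The 30 min count of 6 became 3 without the covariate, 1 with weights, 3 without the pair and 1 to 191 without 1 library. Fits of only the libraries of the 60 and 30 min comparisons, chosen after seeing the data as were those without 1 library of these times, gave 9 genes at 60 min and 0 genes at 30 min (limma; 761 with an unadjusted p under 0.05). The cause of these moves was not tested. Depth is unknown, so its limit on low genes cannot be given.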
